A study of Homo sapiens with 6 samples.

Results

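The TGF-beta superfamily ligands, receptors, co-receptors and latent binding proteins were followed from undifferentiated human embryonic stem cells (hESC) into mesodermal progenitors. The members were given as 40 gene symbols, and a member was measured by the array probe sets annotated to that symbol alone. In all, 38 of the 40 symbols had such a probe set, 94 probe sets in total, out of 19775 genes measured in the series. GDF6 and BMPR1A are not analysed here. The stem cells were of the H9 line, an established hESC line, which by its label was unmodified and undifferentiated. The progenitors came from the same line after 3.5 days of culture in the medium Stemline II, to which FGF2, VEGF, BMP4 and activin A had been added, and were sorted by flow cytometry for the surface antigen CD56 (NCAM1) and against CD326 (EPCAM). Each group had 3 one-colour oligonucleotide arrays, so the comparison rests on 1 cell line, and no unsorted cells of that day were measured. Activin A is a dimer of the protein that INHBA encodes, and BMP4 is the product of the BMP4 gene. The arrays measured the transcripts of these genes, not the protein that had been added.

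Ligands of this superfamily are secreted as dimers, most of which bring together type II and type I serine/threonine kinase receptors. The activated type I receptor phosphorylates SMAD proteins, which enter the nucleus with SMAD4. Most BMPs and some GDFs act mainly through SMAD1, SMAD5 and SMAD9, whereas activins, nodal, several other GDFs and the TGF-betas act mainly through SMAD2 and SMAD3. TGF-betas are stored in the matrix in a latent form bound to some of the LTBP proteins. Activin and nodal signals keep hESC pluripotent and, at higher dose, specify streak and endoderm, while BMP signals promote mesoderm of posterior and lateral character.

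The labelled identities were checked on marker genes. All 12 mesoderm markers listed, among them TBXT, MESP1 and HAND1, were higher in the progenitors, and all 9 stem cell markers measured, among them NANOG and SOX2, were lower. Mean intensities in the progenitors ran from 299 (TBXT) to 6683 (HAND1) for the mesoderm markers and from 44.3 (PRDM14) to 1825 (DNMT3B) for the stem cell markers. NCAM1 and EPCAM, the antigens of the sort, are in these lists and are no finding. Progenitor array 1 stood apart from the other progenitor arrays. The summed deposited intensity of 16 endothelial and blood markers was 8058 on that array against 2402 and 2610 on arrays 2 and 3, and 970 to 1045 in hESC. Of these markers 7 rose, none fell and 9 did not pass, and in the progenitors they ranged from SOX18 at a mean of 9.86 to TEK at 1325. CDH5, the cadherin that defines endothelium, was at 1012 on array 1 and at 102 and 121 on arrays 2 and 3. In these bulk samples, fewer cells of a type and less RNA per cell cannot be told apart. The progenitor sum of 8 endoderm markers was 708 to 820 and the hESC sum 698 to 758, and 3 of them rose and 2 fell, with means in the progenitors from 3.20 (TTR) to 203 (AFP). For 9 neuroectoderm markers the sums were 3299 to 3990 and 3720 to 4068, and 2 rose and 2 fell, with means from 3.23 (NEUROG2) to 2634 (NES). Of 9 trophoblast and amnion markers 6 rose and 1 fell, with sums of 2401 on progenitor array 1, 3552 and 3473 on the others and 373 to 439 in hESC. ISL1, which mesodermal cells can also express, was the highest of them in the progenitors, at 1404, 1988 and 1913, and made up the larger part of each progenitor sum. The placental hormone gene CGA was the lowest, at a mean of 7.40. The test was passed by 43.8% of the endothelial and blood, 62.5% of the endoderm and 44.4% of the neuroectoderm markers. It was passed by 77.8% of the trophoblast and amnion markers and by 47.9% of all genes. The median deposited intensity was 31.0 to 31.2 on the progenitor arrays and 33.1 to 36.1 on the hESC arrays. The hybridization controls, RNAs added in known amount to each sample, were lower on the progenitor arrays too, at a mean log2 intensity of 9.52 to 9.74 against 9.99 to 10.26.

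Of the 38 members, 17 were higher in the progenitors, 5 were lower and 16 did not pass the test. BMP4, BMP5, BMP2, TGFB2, TGFB1 and the receptor ACVRL1 showed the largest increases. The activin and inhibin beta chains INHBE, INHBB and INHBA, the co-receptor RGMA and, by a small amount, BMP6 decreased. Of the type I and type II receptors measured none was called lower on its brightest probe set, but some alternative settings gave such calls. ACVR1C was called lower in 3 of them, given with its values. TGFBR1 was called lower when its probe sets were averaged (-0.48, adjusted p = 0.00463 in limma, n = 3 per group). It was also called lower when probe sets with names ending in _s_at or _x_at were dropped (-2.36, adjusted p = 0.000222 in limma, n = 3 per group). A change is given as a log2 difference, the progenitor mean minus the hESC mean of log2(intensity + 16) after quantile normalization. It understates the change of dim genes. A member was called at an adjusted p under 0.05 in limma's moderated test over all 19775 genes (3 arrays per group). By that rule 47.9% of all genes were called, 26.7% higher and 21.2% lower, against 57.9% of the members, 44.7% higher and 13.2% lower. The median change was 0.20 over the members and 0.04 over all genes. In 22 members (57.9%) the groups did not overlap, near the 57.3% of all genes. At least 2-fold increases were called for 10 members (26.3%, against 9.39% of all genes) and decreases of that size for 4 (10.5%, against 7.22%). The division of all called genes into higher and lower depended on the scaling: 55.8% were higher here, 37.3% when arrays were centred on their median and 81.9% when they were scaled on hybridization controls. These scalings moved the median change of all genes to -0.15 and 0.32. The counts of members were then 16 higher and 6 lower, and 25 higher and 4 lower. Median centring removed the call of ACVR2B and added ACVR1C as lower. Scaling on hybridization controls removed the call of BMP6 and added 8 members as higher: BMP3 (0.37), BMP8B (0.55), ACVR2A (0.57), TGFBR2 (0.71), RGMB (0.73), LTBP1 (0.59), LTBP2 (0.55) and LTBP3 (0.39). Without progenitor array 1, hESC array 1 or hESC array 2, the count of lower members was 3 in place of 5.

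**Figure D1:**
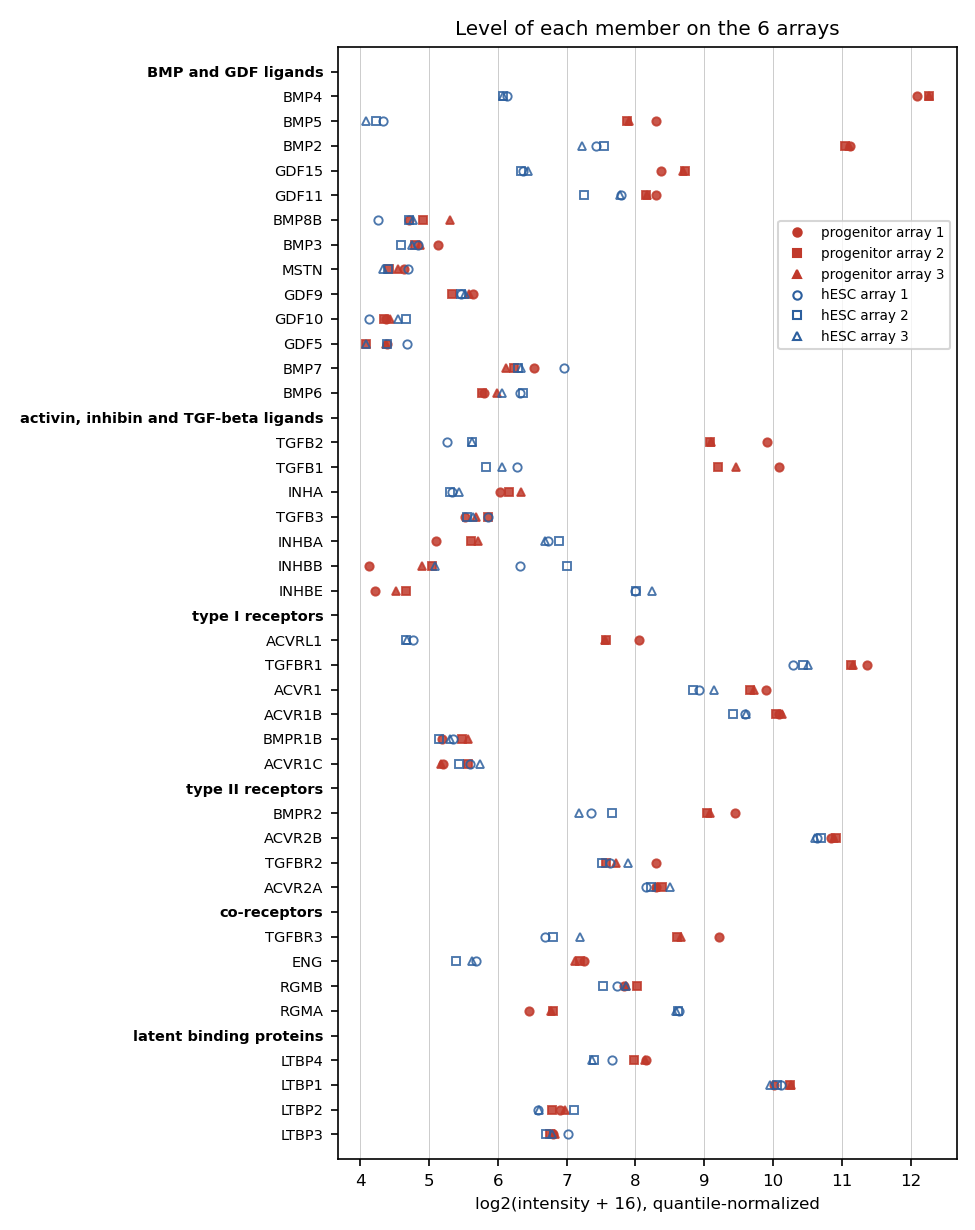
Level of each of the 38 members on the 6 arrays, as log2(intensity + 16) after quantile normalization, on the horizontal axis, with the members grouped by role on the vertical axis. Filled symbols are progenitor arrays and open symbols hESC arrays, with the shape giving the array number, and BMP4 has the widest gap between the groups (log2 change 6.11).

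**Figure D2:**
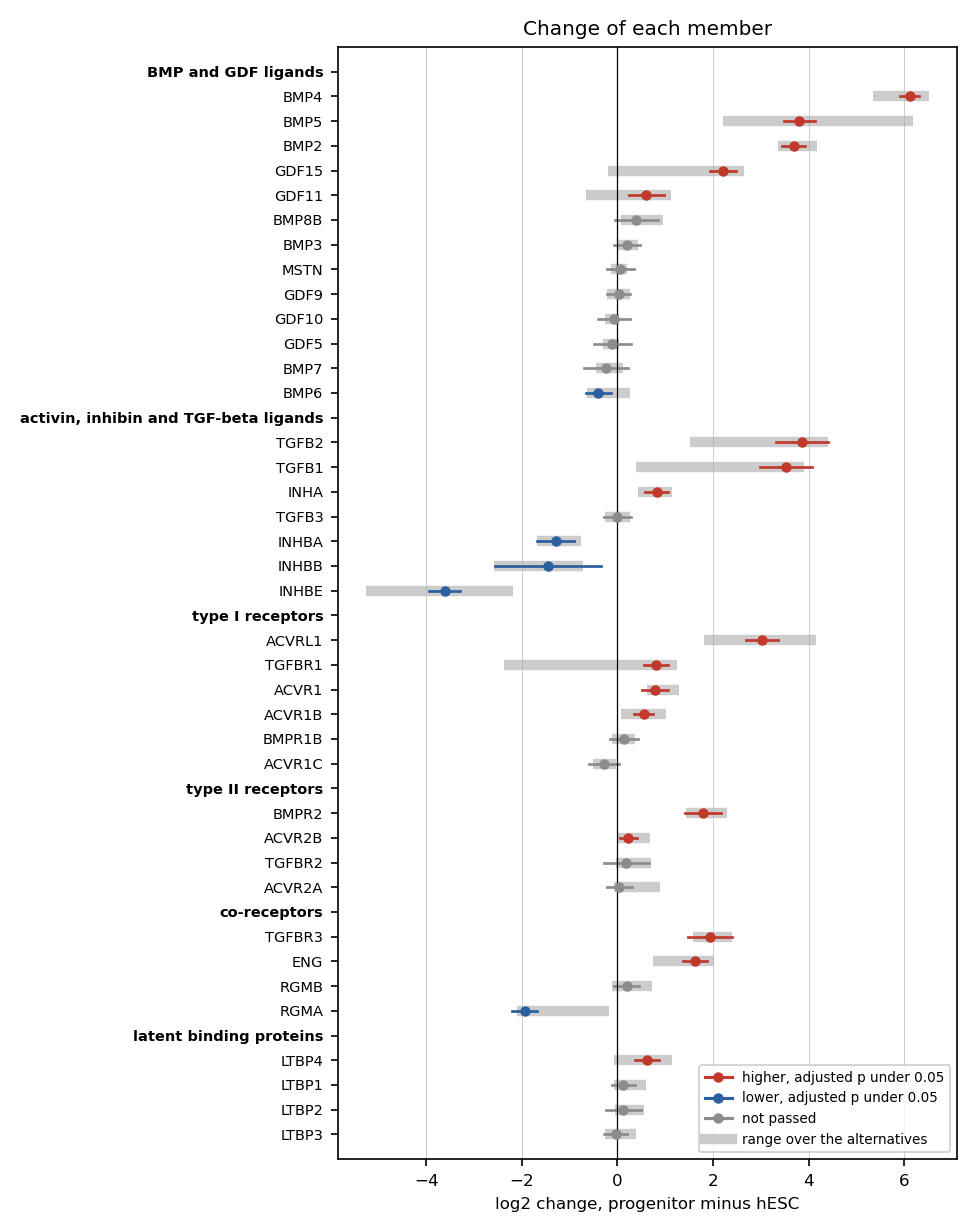
Change of each member (log2, progenitor minus hESC) with its 95% confidence interval from limma, over a grey bar that spans the values under the alternative settings. Red marks the 17 members that were higher, blue the 5 that were lower and grey the 16 that did not pass.

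The sequence just before the start site is shown for BMP4, the member with the largest change, and for those other members with 1 listed start site that had the largest increases (TGFB2, BMP5, TGFB1) and decreases (INHBB, INHBA). RefSeq promoter entries (GRCh38.p14) matched 33 of the 38 members, and BMP4 has 3 entries, of which the most upstream is given. Each sequence is 250 bases, 5′ to 3′ on the gene's strand, ending at the base before the start site: BMP4 at chr14:53955051-53955300 (minus strand), TGFB2 at chr1:218345086-218345335 (plus), BMP5 at chr6:55875591-55875840 (minus), TGFB1 at chr19:41353923-41354172 (minus), INHBB at chr2:120345886-120346135 (plus) and INHBA at chr7:41703091-41703340 (minus). Capitals mark the letters of the motifs that were searched for on both strands.
BMP4: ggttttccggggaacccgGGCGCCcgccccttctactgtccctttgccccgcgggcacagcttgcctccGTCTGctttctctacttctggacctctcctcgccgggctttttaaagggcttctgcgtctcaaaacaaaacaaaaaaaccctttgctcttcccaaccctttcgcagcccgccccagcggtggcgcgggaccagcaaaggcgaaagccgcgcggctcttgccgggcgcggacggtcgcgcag
TGFB2: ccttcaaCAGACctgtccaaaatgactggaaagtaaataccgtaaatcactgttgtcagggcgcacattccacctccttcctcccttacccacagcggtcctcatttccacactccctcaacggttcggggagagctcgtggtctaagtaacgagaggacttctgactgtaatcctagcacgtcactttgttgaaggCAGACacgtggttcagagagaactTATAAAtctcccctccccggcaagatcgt
BMP5: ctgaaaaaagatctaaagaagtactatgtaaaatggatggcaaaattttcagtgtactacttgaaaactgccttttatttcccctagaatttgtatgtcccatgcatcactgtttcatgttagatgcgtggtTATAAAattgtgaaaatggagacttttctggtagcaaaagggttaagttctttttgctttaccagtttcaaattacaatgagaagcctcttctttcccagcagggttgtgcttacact
TGFB1: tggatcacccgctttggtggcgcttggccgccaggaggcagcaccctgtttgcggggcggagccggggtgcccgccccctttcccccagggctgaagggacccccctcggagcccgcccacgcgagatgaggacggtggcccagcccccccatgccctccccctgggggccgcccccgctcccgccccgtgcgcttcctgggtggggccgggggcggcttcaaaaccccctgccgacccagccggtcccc
INHBB: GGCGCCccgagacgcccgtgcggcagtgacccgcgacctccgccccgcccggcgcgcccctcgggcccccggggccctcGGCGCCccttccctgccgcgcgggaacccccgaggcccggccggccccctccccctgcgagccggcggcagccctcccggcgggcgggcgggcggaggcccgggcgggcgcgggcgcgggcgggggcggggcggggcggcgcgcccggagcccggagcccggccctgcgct
INHBA: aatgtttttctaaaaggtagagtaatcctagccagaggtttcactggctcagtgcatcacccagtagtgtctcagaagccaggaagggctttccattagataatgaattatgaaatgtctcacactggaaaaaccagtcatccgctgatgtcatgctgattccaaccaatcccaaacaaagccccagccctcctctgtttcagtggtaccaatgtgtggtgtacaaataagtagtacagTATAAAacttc

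The motifs searched for were GGCGCC, a GC-rich element that BMP-activated SMADs can bind, CAGAC, the core of the CAGA box of SMAD3 and SMAD4, CTTTGA, a core of TCF and LEF sites, and the TATA box TATAAA. Positions count back from -1, the base before the start site. The BMP4 window held GGCGCC at -232 and CAGAC, on the opposite strand, at -181. The TGFB2 window held CAGAC at -243 and -53 and TATAAA at -29, and that of BMP5 held TATAAA at -118. The INHBB window, with 89.6% G or C, held GGCGCC at -250 and -171, and INHBA held TATAAA at -11. No searched letters were found in the TGFB1 window, and CTTTGA was in none of the 6. No matches in these windows overlapped. Among all 35116 promoter entries, windows of the same length held GGCGCC in 16.4%, CAGAC in 38.0%, CTTTGA in 11.2% and TATAAA in 10.7%. Among the 63 entries of the members the shares were 19.0%, 38.1%, 4.76% and 11.1%. A match is a description of the letters and not a measured binding site, and entries of 1 gene can overlap.

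Of the 13 BMP and GDF ligands measured, 5 rose, 1 fell and 7 did not pass, so that 46.2% were called, against 47.9% of all genes. BMP4, a ligand that patterns the streak and lateral mesoderm, had deposited intensities of 4286, 4861 and 4873 on progenitor arrays 1 to 3 and of 57.3, 56.1 and 51.0 on the hESC arrays. The groups were far apart, and the spread within either was small. BMP4 rose by 6.11 (SE 0.09, adjusted p = 3.79e-08 in limma, n = 3 per group). It has a single probe set here, whose name ends in _s_at, an ending for probe sets that can match several transcripts. BMP2, a closely related ligand, was at 2171, 2036 and 2116 in the progenitors and at 155, 170 and 129 in hESC. All progenitor arrays lay above all hESC arrays, and BMP2 rose by 3.69 (SE 0.10), with 4.11 on its other probe set. BMP5, a ligand of the BMP7 subgroup, was at 307, 221 and 224 in the progenitors and at 4.21, 2.94 and 1.00 in hESC, with the hESC arrays close to the lowest values of the table. It rose by 3.81 (SE 0.14), and its other probe set by 3.38. The size of that change depended on the pseudocount, and ranged from 2.21 to 6.18 over the alternatives, all of them called.

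GDF15, a stress-induced cytokine, was at 325, 405 and 396 in the progenitors and at 69.6, 69.8 and 70.2 in hESC, with the hESC arrays nearly equal. It rose by 2.21 (SE 0.11). That value comes from a probe set named _x_at, an ending with the same limit. Another of its probe sets rose by 0.55, and 1 more, at most 11.5 on any array, differed by -0.20 without passing. GDF11, a ligand of axial patterning, was at 308, 272 and 273 in the progenitors and at 204, 138 and 196 in hESC. Its brightest probe set rose by 0.60 (SE 0.16, adjusted p = 0.0153 in limma, n = 3 per group), and without progenitor array 1 it was not called (0.55, adjusted p = 0.0508). Its probe sets did not move together: another, at 90.6, 116 and 105 in the progenitors and 171, 182 and 158 in hESC, fell by 0.66, and the remaining 3 did not pass.

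BMP6, a ligand close to BMP5 and BMP7, was at 37.6, 36.9 and 45.3 in the progenitors and at 67.1, 71.3 and 50.9 in hESC. The groups did not overlap, but hESC array 3 came near the progenitors. BMP6 changed by -0.40 (SE 0.11, adjusted p = 0.0229 in limma, n = 3 per group), and it was not called without progenitor array 1 (-0.37) or 2 (-0.36) or hESC array 1 (-0.36) or 2 (-0.34). Its other probe sets pointed up without passing, and 1 of them was at 114 on progenitor array 1 against 42.3 and 47.6 on arrays 2 and 3 and 27.4 to 38.4 in hESC. BMP7 differed in the same direction on all 4 of its probe sets, by -0.24 to -0.36, and none passed. Its brightest one was at 74.6, 56.9 and 51.0 in the progenitors and at 110, 66.8 and 64.1 in hESC, with overlapping groups. The other 6 ligands of this class, which were BMP3, BMP8B, GDF5, the oocyte ligand GDF9, GDF10 and the muscle growth inhibitor MSTN (myostatin), did not pass. BMP3, GDF5, GDF10 and MSTN stayed under 20 on every array, and the table gives no detection call to tell such values from background. BMP8B was at 9.82, 13.4 and 22.2 in the progenitors and at 3.19, 11.3 and 11.4 in hESC. GDF9 differed by 0.03 between overlapping groups (95% confidence interval -0.21 to 0.27).

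Of the 7 activin, inhibin and TGF-beta ligands, 3 rose, 3 fell and 1 did not pass (85.7% called, against 47.9% of all genes). INHBE, which encodes the beta chain of activin E, had the largest decrease among the members. It was at 2.55, 8.94 and 6.55 in the progenitors and at 236, 239 and 278 in hESC, and fell by 3.61 (SE 0.14, adjusted p = 1.27e-06 in limma, n = 3 per group). The hESC arrays were close together, and all progenitor arrays were near the lowest values of the table. The size of the change depended on the pseudocount, at -5.26 with 1 and -2.18 with 64, both called. INHBA, the beta chain of activin A, was at 17.4, 31.3 and 34.6 in the progenitors and at 92.4, 106 and 85.5 in hESC, and fell by 1.29 (SE 0.17). A second INHBA probe set fell by 1.55, and another, at most 27.3 on any array, differed by 0.37 without passing. INHBB, the beta chain of activin B, was at 1.48, 16.1 and 13.1 in the progenitors and at 67.2, 116 and 18.3 in hESC. The groups did not overlap, but hESC array 3 lay just above progenitor array 2. INHBB changed by -1.45 (SE 0.47, adjusted p = 0.0382 in limma, n = 3 per group). It was not called without any 1 of the progenitor arrays (-1.17, -1.63 and -1.56 without arrays 1 to 3), hESC array 1 (-1.36) or hESC array 2 (-1.02), nor at a pseudocount of 1 (-2.58) or 64 (-0.72). INHA, the alpha chain that turns beta chains into inhibins, which oppose activin, rose by 0.82 (SE 0.10), from 25.6, 26.0 and 27.9 in hESC to 47.8, 53.5 and 62.4.

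Among the TGF-betas, TGFB1, the most widely made isoform, was at 1059, 561 and 677 in the progenitors and at 64.9, 44.6 and 50.7 in hESC. The groups were far apart, and progenitor array 1 was the highest of all. TGFB1 rose by 3.52 (SE 0.23, adjusted p = 1.76e-05 in limma, n = 3 per group). Its second probe set, between 47.5 and 59.0 in the progenitors and between 35.1 and 48.6 in hESC, rose by 0.39, which is also the value for the gene if _s_at and _x_at probe sets are dropped. TGFB2, an isoform of the developing heart and mesenchyme, was at 940, 522 and 525 in the progenitors and at 23.6, 36.8 and 33.8 in hESC, and again array 1 was the highest. It rose by 3.86 (SE 0.23), and 4 of its 5 probe sets were called higher, with changes from 0.48 to 3.86. TGFB3, the remaining isoform, was at 28.4, 40.1 and 33.1 in the progenitors and at 44.9, 34.1 and 34.2 in hESC, with a difference of 0.0015 (95% confidence interval -0.29 to 0.29).

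Of the 6 type I receptors measured, 4 rose, none fell and 2 did not pass in limma, and none was lower at an unadjusted p under 0.05 either. The share called was 66.7%, against 47.9% of all genes. ACVRL1, a type I receptor for BMP9 and BMP10 that is known from endothelium, was at 259, 176 and 173 in the progenitors and at 11.9, 10.4 and 9.71 in hESC. It rose by 3.02 (SE 0.14, adjusted p = 3.61e-06 in limma, n = 3 per group), with 0.73 on its other probe set, and by 4.15 at a pseudocount of 1 and 1.81 at 64. It was higher on progenitor array 1 than on arrays 2 and 3, as the endothelial markers were. Without array 1 the change of ACVRL1 was 2.86. The summed endothelial and blood markers were above hESC on arrays 2 and 3 too (2402 and 2610 against 970 to 1045). The part of these markers in the ACVRL1 result was not tested. TGFBR1, the type I receptor for TGF-betas, was at 2560, 2148 and 2216 in the progenitors and at 1274, 1440 and 1435 in hESC, and rose by 0.81 (SE 0.10). Another TGFBR1 probe set did the opposite, at 20.7, 27.2 and 31.0 in the progenitors and 227, 293 and 128 in hESC, and fell by 2.36 (SE 0.27). ACVR1, a type I receptor for BMPs, was at 929, 774 and 805 in the progenitors and at 467, 443 and 546 in hESC, and rose by 0.79 (SE 0.11). ACVR1B, the type I receptor for activin and nodal, was at 1056, 1010 and 1076 in the progenitors and at 771, 683 and 764 in hESC, and rose by 0.55 (SE 0.09). Its probe sets were divided, with 2 higher, 2 lower by 0.39 and 0.41 and 2 that did not pass, and both of the lower ones were at most 40.1 on any array. BMPR1B, a type I receptor for BMPs and GDFs, was dim in both groups, between 19.4 and 29.5 on the 6 arrays, and did not pass. ACVR1C, a nodal and activin receptor, was at 19.7, 29.8 and 19.2 in the progenitors and at 34.7, 30.1 and 37.6 in hESC. Its difference of -0.28 did not pass. It was called lower without progenitor array 2 (-0.40), without normalization between arrays (-0.37, adjusted p = 0.0444 in limma, n = 3 per group) and with each array centred on its median (-0.52, adjusted p = 0.0121 in limma, n = 3 per group).

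Of the 4 type II receptors, 2 rose and 2 did not pass (50% called, against 47.9% of all genes). BMPR2, the type II receptor for BMPs, was at 682, 504 and 520 in the progenitors and at 147, 186 and 125 in hESC. It rose by 1.79 (SE 0.16, adjusted p = 8.4e-05 in limma, n = 3 per group), and 5 of its 6 probe sets were called higher, with changes from 1.46 to 2.05. ACVR2B, a type II receptor for activin, nodal and several GDFs, was bright in both groups, at 1771, 1867 and 1826 in the progenitors and at 1644, 1730 and 1531 in hESC. It rose by 0.23 (SE 0.08, adjusted p = 0.0425 in limma, n = 3 per group) and was not called without progenitor array 2 (0.21) or 3 (0.23) or hESC array 1 (0.23) or 3 (0.21). ACVR2B was not called either, at 0.0084, when each array was centred on its median, or when probe sets were tested singly (adjusted p = 0.0616). Another of its probe sets, at 183, 129 and 131 against 80.2, 77.5 and 109, rose by 0.66, and 1 more did not pass. ACVR2A, its close relative, was at 309, 322 and 301 in the progenitors and at 264, 282 and 342 in hESC, and did not pass on that probe set (0.04). Its other probe set, at 378, 381 and 404 against 187, 192 and 212, rose by 0.89 (SE 0.10). TGFBR2, the type II receptor for TGF-betas, was at 309 on progenitor array 1, at 175 and 195 on arrays 2 and 3, and at 181, 166 and 215 in hESC. Without progenitor array 1 its difference turned from 0.18 to -0.039, and neither passed, whereas with scaling on hybridization controls it was called, at 0.71.

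Of the co-receptors, 2 rose, 1 fell and 1 did not pass (75% called, against 47.9% of all genes). TGFBR3 (betaglycan), which presents TGFB2 and inhibins to their receptors, was at 585, 374 and 388 in the progenitors and at 89.4, 99.7 and 127 in hESC. It rose by 1.93 (SE 0.20, adjusted p = 0.000165 in limma, n = 3 per group), with 1.64 on its other probe set. ENG (endoglin), a co-receptor of endothelial and early mesodermal cells, was at 141, 129 and 121 in the progenitors and at 37.6, 28.6 and 33.7 in hESC, and rose by 1.62 (SE 0.10). Its other probe set, at 12.2, 18.3 and 19.6 in the progenitors and 20.6, 20.5 and 22.8 in hESC, did not pass (-0.12), and the mean of both rose by 0.75. Unlike ACVRL1, ENG did not stand out on progenitor array 1, where it exceeded the mean of the other arrays by 0.11. RGMA, a BMP co-receptor that is also a guidance cue of the nervous system, was at 70.6, 93.6 and 91.6 in the progenitors and at 380, 372 and 367 in hESC, and fell by 1.94 (SE 0.11). Its second probe set, at most 22.1 on any array, did not pass. RGMB, the paralogue of RGMA, was at 220, 246 and 217 in the progenitors and at 196, 168 and 209 in hESC. None of its 4 probe sets passed, and they pointed both ways, from -0.54 to 0.20.

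Among the 4 latent binding proteins LTBP4 rose and the other 3 did not pass, so that 25% were called, against 47.9% of all genes. Those other 3 were all called higher with scaling on hybridization controls. LTBP4 was at 277, 240 and 269 in the progenitors and at 185, 153 and 145 in hESC, and rose by 0.62 (SE 0.11, adjusted p = 0.00263 in limma, n = 3 per group). That probe set and another that rose by 0.60 are named _x_at. A further one, named _s_at and at 75.0 to 81.0 in the progenitors against 14.0 to 33.4, rose by 1.34. The only LTBP4 probe set without such an ending, at most 7.54 on any array, did not pass (-0.072). LTBP1 was the brightest of this class in both groups by its own probe set, at 1007, 1173 and 1175 in the progenitors and at 1122, 1084 and 983 in hESC, and did not pass (0.13, 95% confidence interval -0.11 to 0.36). Its other probe set, at 139, 120 and 105 against 67.3, 54.8 and 59.5, rose by 0.88. LTBP2 was at 105, 92.8 and 108 in the progenitors and at 82.2, 125 and 79.6 in hESC, and was called without hESC array 2, at 0.30. LTBP3 ranged from 90.1 to 96.1 in the progenitors and from 92.1 to 115 in hESC, and did not pass.

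Probe sets of 1 gene often gave different calls. Of the 94 member probe sets tested singly, 35 were higher, 10 were lower and 49 did not pass, so that 47.9% were called, against 40.2% of all 54613 probe sets (20.3% higher and 20.0% lower). Of the 28 members with several probe sets, 14 had 1 call for all of them. GDF11, ACVR1B and TGFBR1 had calls in both directions. For the other called members with several probe sets, the probe sets that were called pointed the same way.

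**Figure D3:**
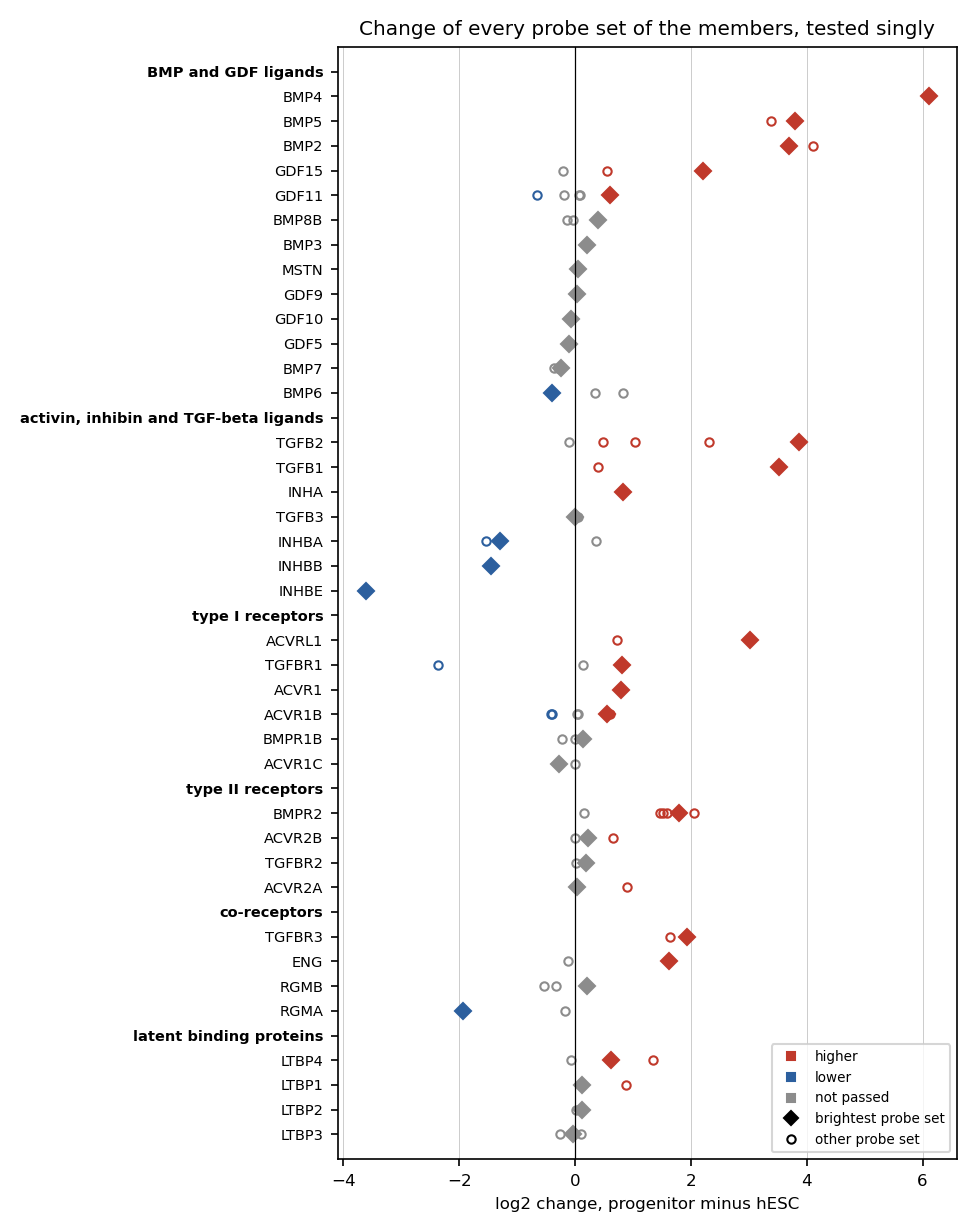
Change of each of the 94 member probe sets (log2, progenitor minus hESC), tested singly, by member and role. Diamonds mark the brightest probe set of a gene and circles the others, and the probe set of TGFBR1 at -2.36 lies opposite to its brightest one at 0.81.

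Progenitor array 1 differed from arrays 2 and 3 for some members. TGFB2 was higher there by 0.82 than the mean of the others on the log2 level scale, TGFB1 by 0.76, TGFBR2 by 0.66, TGFBR3 by 0.58 and ACVRL1 by 0.49. INHBB was lower there by 0.84 and INHBA by 0.56. Of the 38 members 4 exceeded the others by over 0.5 (10.5%), against 4.18% of all genes, and 12 of the 16 endothelial and blood markers did so, with a median of 1.32 for that list. So did 5 of the 9 neuroectoderm markers (median 0.50), 1 mesoderm and 1 stem cell marker, while 1 mesoderm marker and 2 of the 9 trophoblast and amnion markers were lower there by over 0.5, the lowest at -1.92. The median of the members was 0.0085. The part of these markers in the levels of the members was not tested. Without array 1, TGFB1 rose by 3.27, TGFB2 by 3.59 and TGFBR3 by 1.74, and all 3 were called.

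**Figure D4:**
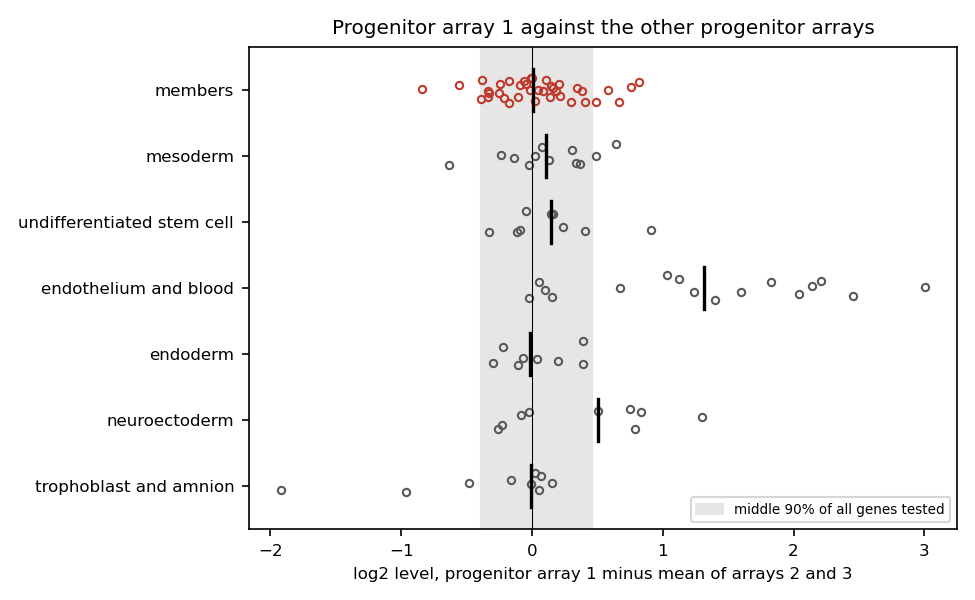
Log2 level on progenitor array 1 minus the mean of arrays 2 and 3, for the members (red) and for the 6 marker lists (grey circles), with each point a gene and each black bar a median. The grey band spans the middle 90% of all genes, -0.39 to 0.46, and the endothelial and blood markers lie mostly to its right (median 1.32).

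The other genes of the pathway were described from lists, to be read against the 47.9% of all genes that were called. Called were 55.6% of other family ligands, 80% of further receptors, 66.7% of SMAD genes, 57.9% of antagonists and 63.2% of latent TGF-beta genes. The shares were 75% for proprotein convertases, 100% for BMP branch targets and 92.9% for TGF-beta and activin branch targets. Among the 9 other family ligands measured 4 fell, 1 rose and 4 did not pass (median change -0.05). LEFTY1, an inhibitor of nodal, changed by -5.33, the ligand NODAL by -2.81 (SE 0.42) and the nodal-related GDF3 by -1.17. BMP10, a ligand of the heart, rose by 0.41 from a mean intensity of 10.5 to 17.6, and it was not called when arrays were centred on their median. Without progenitor array 2 the count of higher ligands was 2 in place of 1. INHBC, an activin chain, did not pass (0.23). The level of NODAL differed among the progenitor arrays, with 113 on the first and 32.8 and 27.6 on the others. 

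Of 5 further receptors and co-receptors 4 rose and 1 did not pass (median 3.42). The nodal co-receptor CFC1 rose by 5.34, the co-receptor NRP1 by 4.89 and the decoy receptor BAMBI by 3.42 (SE 0.08), and HJV, a relative of RGMA, differed by 0.11 without passing. On the mean of their probe sets CFC1 rose by 2.97 and NRP1 by 2.51. Of 21 SMADs and SMAD regulators 10 rose, 4 fell and 7 did not pass (median 0.21). The inhibitory SMAD6 rose by 4.36 (SE 0.11), from a mean intensity of 89.7 to 2071, but on the probe sets left when _s_at and _x_at ones were dropped it did not pass (0.30). SMAD9, a BMP-branch SMAD, rose by 3.57 and SMAD3, of the TGF-beta and activin branch, by 1.63. The ubiquitin ligases NEDD4L and TRIM33 and the SMAD repressor SKIL fell by 1.49, 0.41 and 0.95. STRAP, a receptor-associated protein, differed by 0.09 without passing, and by -0.84 with a call on the mean of its probe sets.

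Of 19 extracellular antagonists 10 rose, 1 fell and 8 did not pass (median 0.42). BMPER, CER1 and NOG (noggin), which bind BMPs, rose by 7.05 (SE 0.08), 4.58 (SE 0.37) and 4.33 (SE 0.09). CER1 varied among the progenitor arrays, with a mean intensity of 1146 and an SD of 698. It rose by 4.11 without progenitor array 1 and by 4.80 and 4.81 without arrays 2 and 3. CHRDL1 fell by 2.96, and CRIM1 did not pass (0.22), although CRIM1 was called without hESC array 2 (0.35). Without hESC array 3 the count of lower antagonists was 2. Of 19 genes of latent TGF-beta activation and storage 10 rose, 2 fell and 7 did not pass (median 0.38). LRRC32 (GARP), which holds latent TGF-beta on the cell surface, rose by 5.26, the fibrillin FBN2, to which LTBPs attach, by 2.74 and the protease MMP2 by 2.64. On the mean of its probe sets MMP2 rose by 0.72. THBS1, an activator of latent TGF-beta, fell by 2.12 (SE 0.14). The integrin chain ITGB5 fell by 0.32 and was not called without progenitor array 2 (-0.29) or 3 (-0.29) or hESC array 3 (-0.30), which leaves 1 lower gene. Without _s_at and _x_at probe sets ITGB5 was called in the opposite direction (0.39, adjusted p = 0.00576 in limma, n = 3 per group). On the mean of its probe sets it did not pass (-0.060). PLAU, a protease, differed by 0.24 without passing. Of 4 proprotein convertases, which cleave the ligand precursors, FURIN rose by 2.38, PCSK5 fell by 1.95, PCSK6 changed by -0.54 from a mean intensity of 19.1 to 6.65, and PCSK7 did not pass (0.21). PCSK6 was not called without progenitor array 1 (-0.50), 2 (-0.57) or 3 (-0.54). On the mean of a gene's probe sets PCSK6 differed by -0.010 without passing. PCSK7 was called lower there (-1.05, adjusted p = 0.000141 in limma, n = 3 per group), so the results of both depended on the probe sets read.

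All 14 BMP branch target genes rose (median 4.28), led by the transcription factors HAND1 at 7.54 and MSX1 at 6.99 and by BMPER. Without _s_at and _x_at probe sets MSX1 rose by 3.16. The lists of targets share members with the other lists and with the genes named for mesoderm, and were written with results of these data known, so their direction is no independent evidence. Of 14 target genes of the TGF-beta and activin branch 8 rose, 5 fell and 1 did not pass (median 0.87). EOMES and MIXL1, transcription factors of the streak, rose by 5.38 and 4.09 and the matrix protein TGFBI by 3.70, whereas LEFTY1, NODAL and SKIL fell. COL1A1, a collagen chain, differed by 0.28 without passing, and was called without hESC array 2 (0.37).

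**Figure D5:**
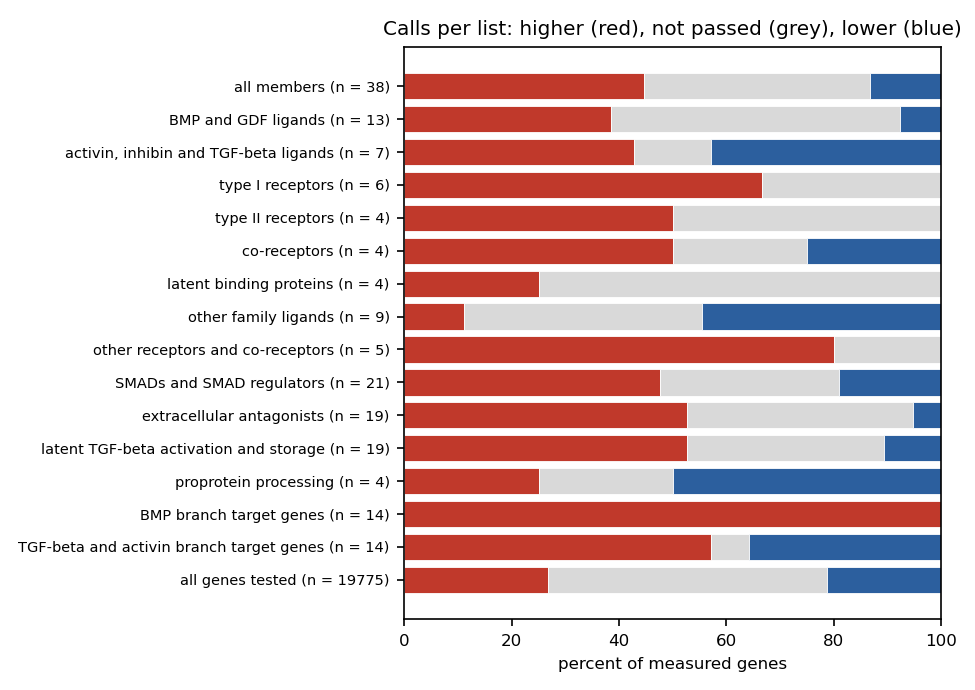
Share of measured genes, in percent, that were higher (red), not past the test (grey) or lower (blue) in the progenitors, for all members, the 6 member classes, the 8 lists of other pathway genes and all 19775 genes. The BMP branch target genes are red throughout (14 of 14), and the activin, inhibin and TGF-beta ligands are divided into 3 higher and 3 lower.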

How the data were processed

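The authors' deposited table holds 1 linear intensity per probe set and array. How probes were summarised, corrected and scaled is stated nowhere in these sources. Among the deposited intensities, 2.15% equalled 1 and 19 values lay below 1. RNA was extracted with a Qiagen micro kit and amplified to biotinylated cRNA, per the labels' protocols. Of 54675 probe sets, 41097 had 1 gene symbol, 1801 several and 11777 none listed. Symbols of 41043 were updated by gene ID, and 62 array controls were left out. Each gene was represented by its brightest single-gene probe set.

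Intensities were converted to log2(intensity + 16) and quantile-normalized, since array medians spanned 0.1495 on the log2 scale. The test was limma's (3.58.1, lmFit and eBayes, R 4.3.3), two-sided, Benjamini-Hochberg adjusted over all genes; no filter on low values was used. The test was checked on simulated data. Whether the 3 samples of a group were separate cultures is not in the labels, and p-values therefore reflect the spread among these arrays, which may be technical. The number of arrays limits the precision. All members are named; of each pathway list the 3 largest called changes in each direction and the brightest gene that did not pass are named, of marker lists the extremes. Among the markers, TBXT, MESP1, HAND1, NANOG, SOX2, CDH5 and the sort antigens were named after their values were seen, as was the NODAL level by array. Members, lists and tests were chosen with earlier results of these data known. Alternatives changed the scaling (none, median centring, 14 hybridization control probe sets), the pseudocount (1, 64), the filter, the probe sets, the variance model, the block, the arrays (each left out; progenitor arrays 2 and 3 averaged) and the threshold (0.01). Figures were drawn with matplotlib 3.10.9.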

Additional observations from a re-analysis of the deposited data

How the results depend on the processing

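Under 18 alternatives, 13 of the 22 called members kept their direction and call wherever the setting gave a value. The low number of arrays and the floor near 1 limit what can be said of dim members. Some settings gave no value for some members: 4 members, BMP4 among them, have only _s_at or _x_at probe sets, and 20 members were among the dimmer 50% of genes.

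Median centring turned the differences of BMP3 (-0.0059), GDF9 (-0.22), MSTN (-0.13), TGFB3 (-0.26), BMPR1B (-0.10), ACVR2A (-0.074), LTBP1 (-0.077), LTBP2 (-0.050), HJV (-0.098) and STRAP (-0.11), with 0 further ligands higher, 6 antagonists higher, 2 antagonists lower and 19 member probe sets lower. Scaling on hybridization controls turned BMP7 (0.12), GDF10 (0.024), LTBP3 (0.39), TRIM33 (0.049) and ITGB5 (0.12). It gave 3 further ligands higher, 16 SMAD genes higher and 2 lower, 1 latent TGF-beta gene lower, 2 convertases higher and 1 lower, and 6 member probe sets lower. Without normalization GDF9 (-0.076) and TGFB3 (-0.11) turned.

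The mean of a gene's probe sets turned BMP6 (0.26), GDF11 (-0.018), BMPR1B (-0.029), TGFBR1 (-0.48), RGMB (-0.12), STRAP (-0.84) and PCSK7 (-1.05), with 1 latent TGF-beta gene lower. Without _s_at and _x_at probe sets GDF11 (-0.66), GDF15 (-0.20), TGFBR1 (-2.36), LTBP4 (-0.072), INHBC (-0.090) and ITGB5 (0.39) turned. There 10 of 34 members were higher, in place of 17 of 38, and 1 latent TGF-beta gene was lower. Of all genes 7667 were called there, 55% of them higher, in place of 9463 with 55.8% higher. These settings read other probe sets. TGFBR1 was called lower under each of them, STRAP and PCSK7 under the former and GDF11 under the latter. ITGB5 was called higher under the latter. On the mean of probe sets the changes of SMAD9 (2.13), SMAD3 (0.87), NODAL (-1.50), THBS1 (-0.97) and NEDD4L (-0.70) were smaller. Those of SKIL (-1.50) and TRIM33 (-1.03) were larger.

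With the dimmer 50% of genes left out, 18 members were tested and 1 was lower, 0 further ligands were higher, 6 antagonists were higher and 1 convertase lower. At an adjusted p under 0.01, 3 members, 1 latent TGF-beta gene and 1 convertase were lower; at a pseudocount of 64, 1 convertase. With progenitor arrays 2 and 3 averaged TGFB3 turned (-0.039), and 1 latent TGF-beta gene and 1 convertase were lower.

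No pairing by replicate number was visible over all genes (same-numbered deviations correlated at -0.022, 0.027 and -0.038). With so few arrays, that cannot exclude that samples of the same number shared a culture. With the replicate number as a block, 17 members were higher and 4 lower, 2 further ligands higher and 1 latent TGF-beta gene lower; ACVR2B and BMP6 lost their calls (adjusted p = 0.105 and 0.0556 in limma) and BMP8B was called higher (adjusted p = 0.0318 in limma), and 8880 genes were called in place of 9463. Not every sample correlated best with its own number.

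Leaving out each array in turn gave 3 to 5 lower members, 1 to 2 higher ligands of the other family members, 1 to 2 lower antagonists, 1 to 2 lower latent TGF-beta genes and 1 to 2 lower convertases. The differences of these genes changed sign: GDF5 (-0.26 to 0.042), GDF9 (-0.031 to 0.12), GDF10 (-0.23 to 0.038), MSTN (-0.018 to 0.17), TGFB3 (-0.085 to 0.090), ACVR2A (-0.038 to 0.14), TGFBR2 (-0.039 to 0.33), LTBP3 (-0.10 to 0.055), HJV (-0.0080 to 0.18) and PLAU (-0.013 to 0.38). None of these was called on all 6 arrays. The cause of a change was not tested in any setting, and the block and left-out arrays leave fewer degrees of freedom.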
